A study of Mus musculus with 5 samples.

Results

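The sites described here are the genomic regions that were enriched by antibodies 2 and 3 against NEUROD2, but in which antibody 1 gave no peak. They come from a ChIP-Seq study, in which DNA fragments bound by a protein are recovered with an antibody and sequenced. Untreated BALB/c mouse pups were used at postnatal day 0, and the study's methods describe cortices of 5 littermates of either sex, which were pooled and cross-linked with formaldehyde. Chromatin was precipitated with antibody 1 (ab168932), antibody 2 (ab104430) or antibody 3 (ab109406), all from Abcam, with 1 library each. A GFP antibody (sc-8334, Santa Cruz) served as the negative control and entered through the peak calling only. The pooled cortex held every cell type of the tissue, and the methods leave unsaid if a separate pool was prepared for each precipitation.

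Peaks of the 3 lists that shared at least 1 bp on the mouse genome GRCm38 (mm10) were merged, which gave 12637 regions. Of these, 487 (3.85%) held a peak of antibody 2 and a peak of antibody 3 and none of antibody 1. They were chosen by the presence and absence of peaks, and therefore by the peak scores, each of which had to reach the calling limit. Scores, lengths and distances to peaks of antibody 1 are given below as descriptions with no test. The members contained 493 of the 3164 peaks of antibody 3 (15.6%) and 489 of the 11196 peaks of antibody 2 (4.37%). The 2088 regions with peaks of all 3 antibodies served for comparison, since antibodies 2 and 3 gave a peak in both classes of sites. None of the 2071 sites in the authors' deposited table of shared sites touched a member, which largely follows from the rule, since those sites are shared by all 3 antibodies.

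NEUROD2 is a neurogenic transcription factor of the basic helix-loop-helix (bHLH) family that is expressed by excitatory neurons of the cortex. Such factors dimerise with the broadly expressed E proteins and contact the E-box, a short palindromic element with the consensus CANNTG. They are known to occupy promoters as well as distal elements. Many mammalian promoters, above all those of broadly expressed genes, lie in CpG islands, which are stretches rich in G and C in which the CpG dinucleotide has been retained.

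The sequences below show promoter and other members side by side, since base composition and E-boxes are described separately for both. Each is the central 200 bp of a member on the plus strand of the GRCm38 reference genome, written 5′ to 3′, with E-boxes in capitals. The promoter examples were the 3 promoter members ranking highest by the lower of the antibody 2 and antibody 3 scores whose window touched no annotated exon.
Ppp4r2 promoter, chr6:100833421-100833620: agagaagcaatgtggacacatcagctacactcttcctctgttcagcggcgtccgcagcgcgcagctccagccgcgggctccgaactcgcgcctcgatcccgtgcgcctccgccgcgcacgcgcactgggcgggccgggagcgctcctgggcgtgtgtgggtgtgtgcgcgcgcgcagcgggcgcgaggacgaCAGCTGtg
Brsk2 promoter, chr7:141950416-141950615: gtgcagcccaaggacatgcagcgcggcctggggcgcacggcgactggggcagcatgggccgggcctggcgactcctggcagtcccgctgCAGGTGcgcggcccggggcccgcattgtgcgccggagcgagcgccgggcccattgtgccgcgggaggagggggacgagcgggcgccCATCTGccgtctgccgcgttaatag
Gpbp1 promoter, chr13:111490217-111490416: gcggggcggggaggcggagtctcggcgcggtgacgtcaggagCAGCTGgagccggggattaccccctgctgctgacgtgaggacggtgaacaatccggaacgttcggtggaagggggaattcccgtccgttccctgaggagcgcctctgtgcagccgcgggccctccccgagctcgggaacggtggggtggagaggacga
Ppp4r2 encodes a regulatory subunit of protein phosphatase 4. Brsk2 encodes a kinase of neuronal polarity, and Gpbp1 a factor that binds GC-rich promoters. Their windows held 1, 2 and 1 E-boxes, at a GC content of 71.5%, 75.5% and 69.5%.

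Outside promoters, the same rule gave an intron of Pdzrn3, which encodes a ubiquitin ligase with PDZ domains, an intron of Nxn, which encodes the thioredoxin-like nucleoredoxin, and an intergenic site on chromosome 4. Their E-box counts were 3, 3 and 1, and their GC content was 60%, 54.5% and 45%.
Pdzrn3 intron, chr6:101233780-101233979: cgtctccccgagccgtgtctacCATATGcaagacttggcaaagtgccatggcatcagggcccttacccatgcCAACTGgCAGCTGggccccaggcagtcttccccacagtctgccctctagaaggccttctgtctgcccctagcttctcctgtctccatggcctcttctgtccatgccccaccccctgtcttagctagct
Nxn intron, chr11:76290428-76290627: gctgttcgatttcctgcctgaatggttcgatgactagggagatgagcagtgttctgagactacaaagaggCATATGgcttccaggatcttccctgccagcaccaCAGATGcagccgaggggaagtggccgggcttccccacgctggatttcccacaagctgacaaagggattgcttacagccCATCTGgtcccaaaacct
Intergenic, chr4:26965905-26966104: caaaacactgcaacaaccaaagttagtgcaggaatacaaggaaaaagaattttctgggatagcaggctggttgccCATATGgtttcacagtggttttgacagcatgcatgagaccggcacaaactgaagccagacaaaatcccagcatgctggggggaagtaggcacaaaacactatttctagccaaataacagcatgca
A pair of further intronic members was chosen after their values were seen. The Hid1 site carried the most E-boxes of all members, 9 copies of CAGCTG in a tandem array, and the Ephb1 site was among the few in which antibody 3 scored above antibody 2.
Hid1 intron, chr11:115357616-115357815: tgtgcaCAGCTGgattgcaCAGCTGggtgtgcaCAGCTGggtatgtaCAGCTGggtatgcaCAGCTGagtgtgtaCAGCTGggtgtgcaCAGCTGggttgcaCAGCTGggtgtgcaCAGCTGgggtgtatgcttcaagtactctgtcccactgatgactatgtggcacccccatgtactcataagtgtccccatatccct
Ephb1 intron, chr9:102298033-102298232: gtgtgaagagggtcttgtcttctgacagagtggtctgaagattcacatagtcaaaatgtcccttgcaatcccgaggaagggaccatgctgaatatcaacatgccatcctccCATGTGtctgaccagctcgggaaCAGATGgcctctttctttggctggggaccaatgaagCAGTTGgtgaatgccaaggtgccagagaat

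Scores of the members are described for each antibody. The authors' score is minus 10 times the log10 of the p-value that MACS, the peak caller, gave to a peak, and it was not scaled between antibodies. With antibody 2, the highest score in a member was between 50.08 and 599.28 (median 119.96, quartiles 84 and 176.315). With antibody 3, it was between 50.03 and 415.62 (median 62.08, quartiles 54.4 and 75.66). The medians over all peaks of these antibodies were 93.89 and 76.7, so the median of the members was above that of the list with antibody 2 and below it with antibody 3. A score of 100 was reached by 307 members (63.0%) with antibody 2, but by only 33 (6.78%) with antibody 3. In regions with all 3 antibodies, the medians were 166.44 with antibody 1, 296.12 with antibody 2 and 100.1 with antibody 3, and 1045 of the 2088 regions reached 100 with antibody 3. Antibody 2 had the higher score in 433 of the 487 members (88.9%), and the median ratio of its score to that of antibody 3 was 1.81, compared with 2.70 in regions with all 3 antibodies.

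The peaks of both antibodies lay in the same merged region by the rule. Exactly 1 peak of each antibody made up 479 members. The antibody 3 peak lay wholly inside the antibody 2 peak in 315 members (64.7%), compared with 1665 regions with all 3 antibodies (79.7%). The midpoints of both peaks were 57 bp apart at the median, compared with 42 bp. Members were 118 to 1468 bp long with a median of 427 bp, compared with 529 bp for regions with all 3 antibodies. The lists carry no read counts, so depth is unknown, and a peak that fell short of the calling limit with antibody 1 cannot be told apart from absent binding.

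The values just inside and just outside the rule follow from the calling limit. The members with the lowest score of either antibody were the promoter of Cacna1b, which encodes the pore-forming subunit of N-type calcium channels (162.88 with antibody 2 and 50.03 with antibody 3), an intergenic site on chromosome 6 (100.86 and 50.04) and an intron of Myo1h, a myosin gene (125.13 and 50.07). Just outside the rule were 3 regions with all 3 antibodies whose antibody 1 peak barely passed. They lay in an exon of Smarca2, which encodes an ATPase of the SWI/SNF complex (50.02 with antibody 1, 80.45 with antibody 2 and 70.97 with antibody 3), in exonic sequence where the annotations of Cx3cr1 and Ttc21a overlap (50.23, 104.43 and 59.47), and in intergenic sequence of chromosome 4 (50.3, 248.63 and 124.66).

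Most members lay far from any peak of antibody 1. The median gap to the nearest one was 94544.5 bp, and 18 members (3.70%) had one within 500 bp and 61 (12.5%) within 10000 bp. Regions with antibody 2 only were similar in this respect. Of these, 242 of 6598 (3.67%) had a peak of antibody 1 within 500 bp and 958 (14.5%) within 10000 bp, and the median gap was 86456 bp. A region with all 3 antibodies lay within 500 bp of 16 members (3.29%) and of 121 regions with antibody 2 only (1.83%). These included an intronic site of Hivep3, which encodes a zinc finger factor, whose nearest bases were 5 bp apart, and sites at the promoters of Plxna4 (50 bp), Foxp2 (241 bp) and Brsk2 (303 bp). They also included a site 3794 bp upstream of the closest TSS of Neurod2 itself (chr11:98333183-98333701), with scores of 229.19 and 70.94, which was 166 bp from a region with all 3 antibodies.

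Members were concentrated at promoters. To learn where the sites lay, each midpoint was assigned to a promoter (a transcription start site, TSS, no more than 1000 bp away), or else to an exon, an intron or intergenic sequence of GENCODE M21. Of the 487 members, 263 (54.0%, 95% Wilson interval 49.6 to 58.4) were at promoters, whereas 38.6% of all merged regions were. Only 645 of the 2088 regions with all 3 antibodies (30.9%, 28.9 to 32.9) were promoter sites, a difference of 23.1 percentage points (95% Newcombe interval 18.2 to 27.9, two-sided Fisher's exact test, Benjamini-Hochberg adjusted p = 1.75e-20 over 4 locations). Intronic members numbered 109 (22.4%), compared with 727 (34.8%), a difference of -12.4 points (-16.5 to -8.04, Fisher's exact test, adjusted p = 1.41e-07). Intergenic members numbered 100 (20.5%), compared with 628 (30.1%), a difference of -9.54 points (-13.4 to -5.27, Fisher's exact test, adjusted p = 2.75e-05). Exons held 15 members (3.08%) and 88 regions with all 3 antibodies (4.21%), and here the difference of -1.13 points (-2.67 to 0.956) did not pass the test (Fisher's exact test, adjusted p = 0.304). With 1 library per antibody, these p-values and intervals cover the counting of regions only, since neighbouring or related regions are not replicates of an experiment.

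**Figure D1:**
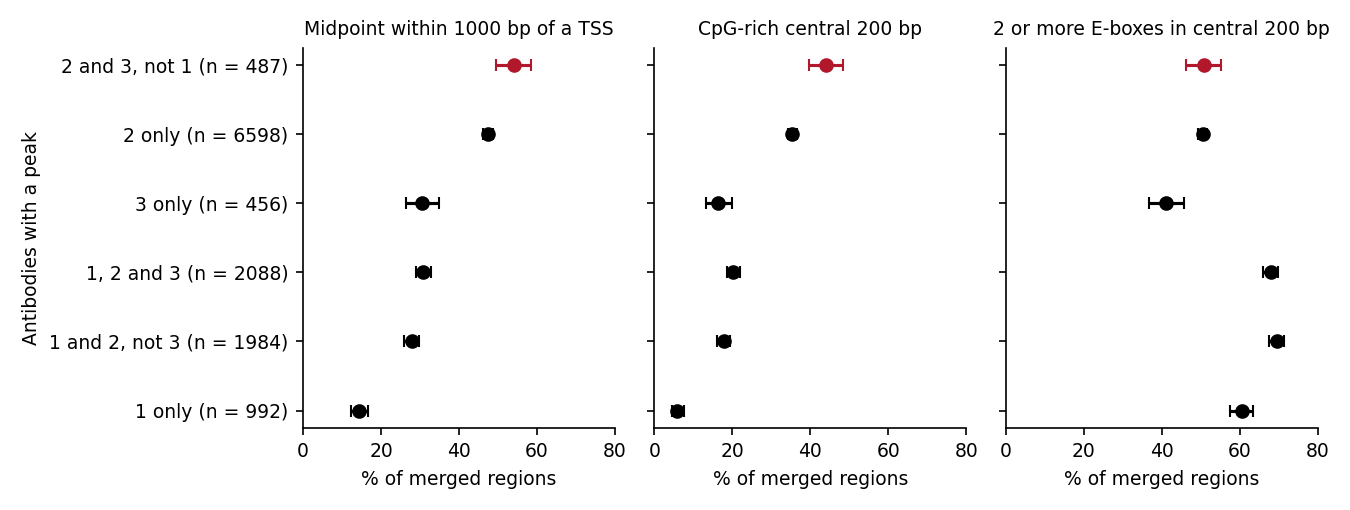
Share of merged regions, in %, at promoters (left), with a CpG-rich central 200 bp (middle) and with 2 or more E-boxes there (right), for each combination of antibodies with a peak. Points are shares and bars are 95% Wilson intervals over regions. The sites of antibodies 2 and 3 (red) had the highest promoter share (54.0%) and CpG-rich share (43.9%) of the 6 classes drawn, and their share with 2 or more E-boxes (50.7%) was close to that of antibody 2 only (50.5%).

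The promoter share was also compared with 3 other classes that share an antibody with the members. The class of antibodies 1 and 3, with 9 of its 32 regions at promoters (28.1%), was not tested or drawn. Regions of antibody 2 only were the closest, with 47.5% at promoters, which was 6.55 points below the members (1.95 to 11.1, Fisher's exact test, adjusted p = 0.00553 over 3 classes). Regions of antibodies 1 and 2 without antibody 3 had 27.8%, a difference of 26.2 points (21.3 to 31.0, Fisher's exact test, adjusted p = 2.63e-26). Regions of antibody 3 only had 30.5%, a difference of 23.5 points (17.3 to 29.5, Fisher's exact test, adjusted p = 4.86e-13).

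Scores differed between the classes, so the promoter share was also read at like scores of antibody 3, a division chosen after the data were seen that leaves the antibody 2 scores unmatched. Where antibody 3 scored between 50.03 and 70.03, 162 of 324 members (50%) were at promoters, compared with 30.3% of the regions with all 3 antibodies (difference 19.7 points, 12.98 to 26.3, Fisher's exact test, p = 1.26e-08). Between 70.07 and 117.88, the shares were 61.6% (90 of 146) and 33.0% (difference 28.6 points, 19.8 to 36.8, Fisher's exact test, p = 1.84e-10). From 118 upwards only 17 members remained, of which 11 (64.7%) were promoter sites, compared with 29.5% (difference 35.2 points, 11.6 to 53.4, Fisher's exact test, p = 0.0052). When regions with all 3 antibodies were instead limited to those whose antibody 2 and antibody 3 scores both lay between the 10th and 90th percentiles of the members, 164 of 605 (27.1%) were at promoters (difference 26.9 points, 21.1 to 32.4, Fisher's exact test, p = 1.45e-19). All 487 members were kept there, including those outside that range, so the scores were not matched.

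Within promoters, the midpoints clustered around the TSS. The closest TSS was within 100 bp of 127 members (26.1%) and between 100 and 250 bp from 75 (15.4%), compared with 249 (11.9%) and 162 (7.76%) of the regions with all 3 antibodies. Of the promoter members, 202 of 263 (76.8%) lay within 250 bp, compared with 411 of 645 (63.7%), a difference of 13.1 points (6.53 to 19.1, Fisher's exact test, adjusted p = 0.00068 over 7 tests added after the data were seen). The median distance was 105 bp and 152 bp, respectively. The midpoint was upstream of the TSS in 36.5% of the promoter members and in 37.8% of the promoter regions with all 3 antibodies. A protein-coding gene started within 1000 bp of 244 promoter members (92.8%), and 24 of the 263 promoter members (9.13%) had the TSSs of several protein-coding genes in reach, as at the Morn1 and Rer1 promoter. In promoter regions with all 3 antibodies, these shares were 88.4% and 10.2%.

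**Figure D2:**
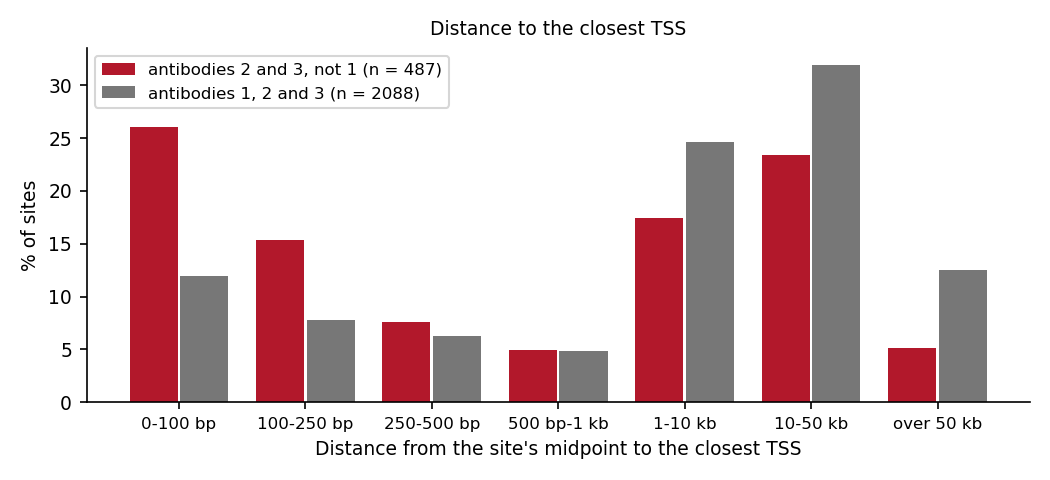
Share of sites, in %, by the distance from the site's midpoint to the closest TSS, for the 487 sites of antibodies 2 and 3 (red) and the 2088 regions with all 3 antibodies (grey). Members exceeded the other class within 100 bp (26.1% and 11.9%) and between 100 and 250 bp (15.4% and 7.76%), and were below it at all distances over 1 kb.

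The highest scoring members illustrate these locations. By the lower of the antibody 2 and antibody 3 scores, 8 of the top 10 were promoter sites. The site at Nrbp1 (chr5:31240736-31241258), which encodes a pseudokinase, ranked highest, with scores of 196.43 with antibody 2 and 176.3 with antibody 3, and its midpoint lay 65 bp downstream of the TSS. The Ppp4r2 site (chr6:100833352-100833689) scored 348.75 and 152.96, and lay 101 bp upstream. The site at Wnt7b (chr15:85582884-85583379), which encodes a secreted WNT ligand, scored 174.89 and 137.72, and at 659 bp upstream it was the most distant of the 8. Its GC content of 53% was the lowest among these promoter members.

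Brsk2 (chr7:141950169-141950862) had scores of 218.24 and 137.41, and an antibody 1 peak of 166.29 was only 303 bp away. For Tcaf1 (chr6:42692638-42693154), which encodes a TRP channel-associated factor, the scores were 270.84 and 132.73. The Natd1 site (chr11:60913216-60913911) had scores of 273.91 and 127.93. All of these were higher with antibody 2 than with antibody 3.

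The site at Gpbp1 (chr13:111490035-111490598) scored 216.01 and 126.67, and the site between Morn1 and Rer1, the latter encoding a sorting receptor of the endoplasmic reticulum (chr4:155086063-155087008), scored 239.58 and 124.07. The other two of the top 10 were intronic. The Pdzrn3 site (chr6:101233678-101234082) had the highest antibody 2 score of the 10, 388.31, with 140.64 for antibody 3, and the Nxn site (chr11:76290318-76290738) scored 209.19 and 131.75. The nearest peak of antibody 1 was 34352 bp from the Nxn site and 340728 bp from the Pdzrn3 site.

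Antibody 3 scored higher than antibody 2 most clearly on the mitochondrial genome. There, a member spanning positions 11595 to 12790 scored 73.08 with antibody 2 and 415.62 with antibody 3, the highest antibody 3 score of all members, and it contained no E-box in its central window. It was counted as a promoter site because its midpoint lay 451 bp from the annotated start of mt-Nd5, a gene of respiratory complex I. Other members of this kind were an intergenic site 6896 bp from Meaf6, which encodes a subunit of histone acetyltransferase complexes (114.52 with antibody 2 and 165.06 with antibody 3), the Ephb1 intron (79.3 and 126.22) and the promoter of Adpgk, which encodes an ADP-dependent glucokinase (54.23 and 112.49).

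**Figure D3:**
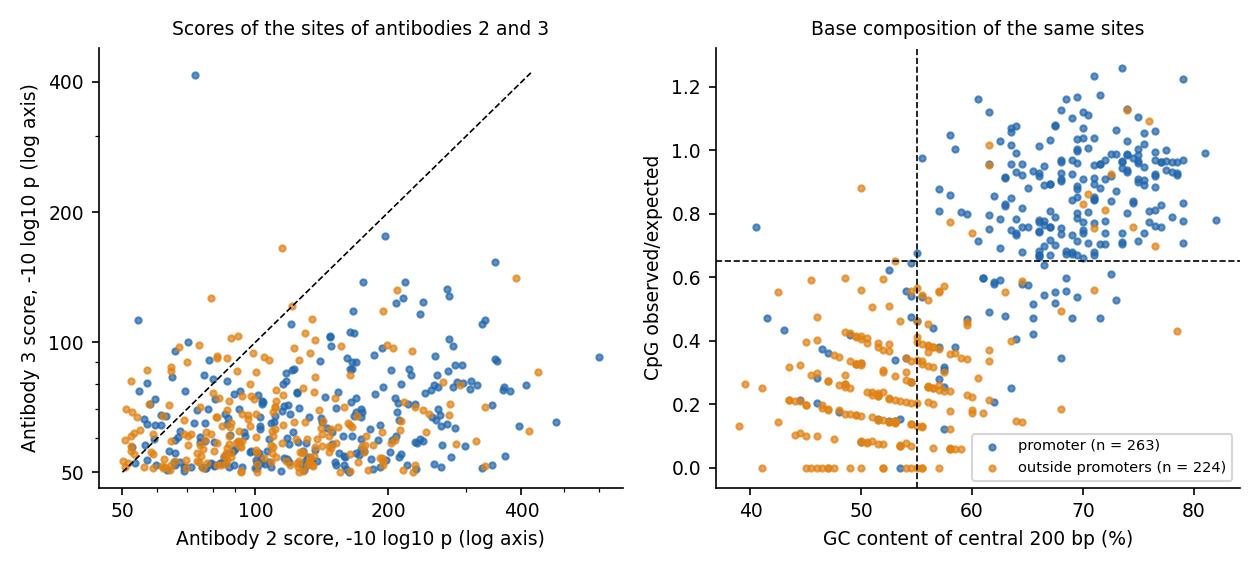
Left, score of each of the 487 members with antibody 2 (x axis) and antibody 3 (y axis), both minus 10 times log10 of p on log axes, with the dashed line marking equal scores. Right, GC content in % and observed over expected CpG of the central 200 bp of the same members, with dashed lines at the 55% and 0.65 that define CpG-rich. Blue points are the 263 promoter members and orange points the 224 others; most points lie below the line of equal scores, and the promoter members gather in the upper right of the composition plot (201 of 263 were CpG-rich).

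Base composition followed location. A central window was called CpG-rich when its GC content was at least 55% and its observed over expected CpG at least 0.65, which held for 214 members (43.9%, 39.6 to 48.4) and for 27.4% of all merged regions. Among regions with all 3 antibodies the share was 20.2% (422 regions), a difference of 23.7 points (19.0 to 28.5, Fisher's exact test, adjusted p = 7.95e-25 over 4 tests). The difference was present within promoters, where 201 of 263 members (76.4%) and 376 of 645 regions with all 3 antibodies (58.3%) were CpG-rich (18.1 points, 11.5 to 24.2, Fisher's exact test, adjusted p = 4.10e-07). Outside promoters, only 13 of 224 members (5.80%) and 46 of 1443 other regions (3.19%) were, and this did not pass the test (2.62 points, 0.0184 to 6.57, Fisher's exact test, adjusted p = 0.0766).

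The members exceeded the regions of antibody 2 only in this respect too, with 35.4% CpG-rich in the latter (8.58 points, 4.08 to 13.2, Fisher's exact test, adjusted p = 0.00068 over the 7 added tests). The median GC content was 68% in promoter members and 53% in the others, and the median observed over expected CpG was 0.808 and 0.254. Windows that were mostly soft-masked repeats were rare, with 5 members (1.03%) and 52 regions with all 3 antibodies (2.49%, Fisher's exact test, adjusted p = 0.0766).

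E-boxes were less frequent in the members than in regions with all 3 antibodies. On either strand, CANNTG was present at least once in the central 200 bp of 398 members (81.7%, 78.0 to 84.9), compared with 83.1% of all merged regions. Regions with all 3 antibodies had 89.3% (1864 of 2088), a difference of -7.55 points (-11.4 to -4.07, Fisher's exact test, adjusted p = 4.22e-05 over 6 tests). The gap was wider for windows with at least 2 E-boxes. These made up 247 members (50.7%), 56.8% of all merged regions and 68.0% of regions with all 3 antibodies, a difference of -17.2 points (-22.1 to -12.4, Fisher's exact test, adjusted p = 1.13e-11). Regions of antibody 2 only had 50.5%, and the difference of 0.211 points from the members was not detectable (-4.38 to 4.79, Fisher's exact test, adjusted p = 0.963 over the 7 added tests).

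The counts were then divided by location. At least 2 E-boxes were found in 82 of 263 promoter members (31.2%) and in 284 of 645 promoter regions with all 3 antibodies (44.0%), a difference of -12.9 points (-19.4 to -5.90, Fisher's exact test, adjusted p = 0.00068). No E-box was present in 77 promoter members (29.3%). At least 1 was present in 70.7% of promoter members and 77.1% of promoter regions with all 3 antibodies, which did not pass the test (-6.33 points, -12.9 to -0.145, Fisher's exact test, adjusted p = 0.0768). Outside promoters, 212 of 224 members (94.6%) and 94.7% of the other class had an E-box, and the interval of the difference ran from -4.00 to 2.51 points (Fisher's exact test, adjusted p = 0.874). For at least 2 E-boxes outside promoters the shares were 73.7% and 78.7% (-4.99 points, -11.5 to 0.771, Fisher's exact test, adjusted p = 0.12). Whether the differences at promoters and elsewhere differed from each other was not tested. When windows were divided by base composition instead, after the data were seen, at least 1 E-box was present in 66.8% of CpG-rich members and 70.9% of CpG-rich regions with all 3 antibodies (Fisher's exact test, p = 0.317), and in 93.4% and 93.9% of the windows that were not CpG-rich (Fisher's exact test, p = 0.685), so the difference was not detectable within either kind of window. At like scores of antibody 3, the difference in the share with at least 2 E-boxes was -11.7 points between 50.03 and 70.03 (-18.4 to -5.03, Fisher's exact test, p = 0.000619) and -28.1 points between 70.07 and 117.88 (-36.3 to -19.3, Fisher's exact test, p = 5.64e-10). From 118 upwards, with 17 members, it was -10.3 points and did not pass the test (-33.3 to 9.57, Fisher's exact test, p = 0.428). These score ranges were not divided by location, and their promoter shares differed between the classes. From the lowest range to the highest, these were 50% and 30.3%, 61.6% and 33.0%, and 64.7% and 29.5%. An E-box difference within 1 location at like scores was not tested.

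Along the sites, E-boxes peaked at the midpoint outside promoters. Members there held 12.7 E-boxes per kb in the central 200 bp and 6.04 per kb at 500 to 1000 bp from the midpoint, a ratio of 2.10. Promoter members held 5.89 per kb centrally and 4.56 per kb in the flanks, a ratio of 1.29. The regions with all 3 antibodies had ratios of 2.33 outside promoters and 1.68 at promoters. These densities are descriptions over regions, with no test.

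**Figure D4:**
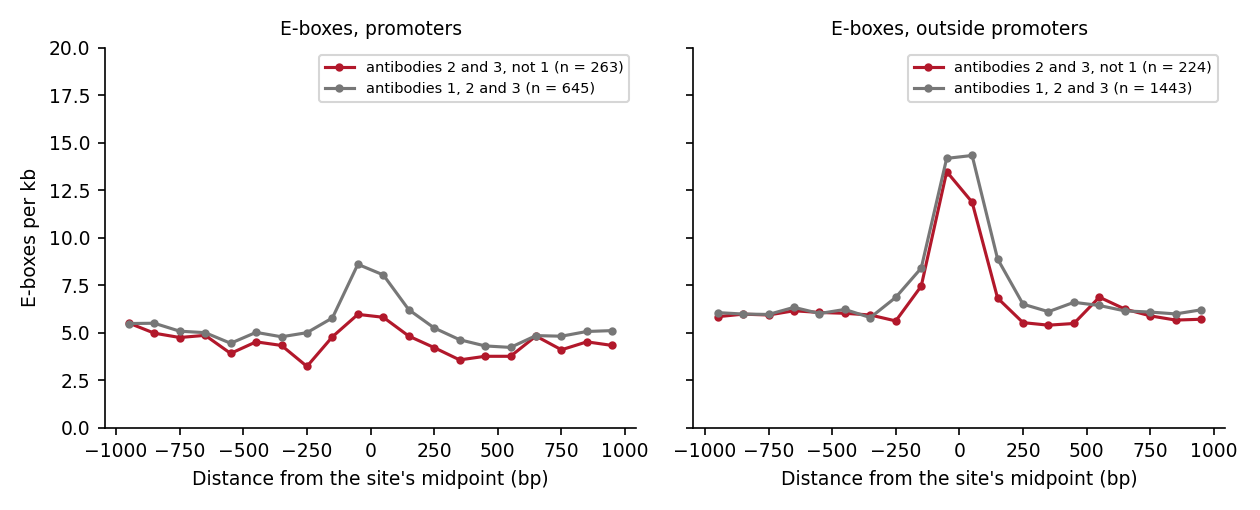
E-boxes per kb (y axis) in bins of 100 bp by distance from the site's midpoint in bp (x axis), at promoters (left) and outside promoters (right), for sites of antibodies 2 and 3 (red) and regions with all 3 antibodies (grey). Outside promoters both lines peak at the midpoint, whereas at promoters the red line rises little above its flanks (5.89 and 4.56 per kb).

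Among the 10 forms of the E-box, counted on both strands together, CAGATG or CATCTG separated the classes. It was found in 187 members (38.4%), in 43.3% of all merged regions and in 1136 regions with all 3 antibodies (54.4%), a difference of -16.0 points (-20.7 to -11.1, Fisher's exact test, adjusted p = 1.93e-09 over 10 forms). The lower share held at promoters (23.2% and 32.1%, -8.90 points, -14.9 to -2.42, Fisher's exact test, adjusted p = 0.0189) and outside them (56.3% and 64.4%, -8.13 points, -15.1 to -1.32, Fisher's exact test, adjusted p = 0.0366). Regions of antibody 2 only had 39.0%, within -5.03 to 3.90 points of the members (Fisher's exact test, adjusted p = 0.945).

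The other 9 forms did not pass the test. CAGCTG, the second most common form in the members, was in 36.3% of them and in 41.8% of regions with all 3 antibodies (34.4% of all merged regions, -5.42 points, -10.1 to -0.576, Fisher's exact test, adjusted p = 0.0786). CATATG was in 5.75% and 9.24% (Fisher's exact test, adjusted p = 0.0526). CACCTG or CAGGTG was in 23.2% and 21.3% (Fisher's exact test, adjusted p = 0.513).

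Of 15 other motif definitions, searched on both strands and without mismatch unless stated, 1 passed the test. The GC box GGGCGG, the element of the broadly expressed SP and KLF factors, was in 151 members (31.0%), 402 regions with all 3 antibodies (19.3%) and 21.6% of all merged regions, a difference of 11.8 points (7.44 to 16.3, Fisher's exact test, adjusted p = 6.20e-07 over 15 definitions). Divided by location, it was in 51.3% of promoter members and 44.5% of promoter regions with all 3 antibodies, and in 7.14% and 7.97% outside promoters, values for which no test was run. The ETS element CCGGAAG was in 22 members (4.52%), 2.49% of regions with all 3 antibodies and 3.32% of all merged regions (Fisher's exact test, adjusted p = 0.171). The CTCF core, an insulator motif, was in 7 members (1.44%), 1.68% of regions with all 3 antibodies and 1.51% of all merged regions (Fisher's exact test, adjusted p = 0.973), and with at most 1 mismatch in 8.42%, 8.67% and 7.75%. Elements of factors that act in neurons were rare in all merged regions and in the members, with TAATTA of homeodomain factors in 5 (1.03%; 2.09% of all merged regions), ATGCAAAT of POU factors in 1 (0.205%; 0.855%), ACAATGG of SOX factors in 13 (2.67%; 2.17%) and TATTTATA of MEF2 in 0, for which the Wilson interval reached 0.783% (0.356% of all merged regions). None of these 4 passed the test against regions with all 3 antibodies (Fisher's exact test, adjusted p = 0.576 for each). The remaining elements, none of which passed, were CCAAT (17.2%; 18.9%), TGANTCA (3.49%; 4.34%), GTTGCCA (4.11%; 3.71%), AAGATGGCG (1.64%; 0.879%), GCATGCGC (1.44%; 1.05%), CTCGCGAG (0.821%; 0.364%) and TGACGTCA (0.616%; 0.514%), each given as its share of the members and of all merged regions.

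The sites were then assigned to genes. A gene was counted when a midpoint lay in it or within 1000 bp of its TSS. This held for 390 protein-coding genes with a member (1.78% of the 21924 annotated), of which 270 had one at the promoter, and for 1183 genes with a region of all 3 antibodies (5.40%). Both kinds of site occurred in 55 genes, which were 14.1% of the genes with a member and 4.65% of the genes with a region of all 3 antibodies. Among all protein-coding genes, the shares were 5.40% with a region of all 3 antibodies and 1.78% with a member. No protein-coding gene was assigned to 132 members (27.1%). Among the 55 genes, named after their values were seen, were Ank2, which encodes the membrane adaptor ankyrin-B (173.33 with antibody 2 and 59.52 with antibody 3 at its promoter), the splicing regulators Rbfox1 (173.44 and 56.56) and Rbfox2 (85.71 and 54.7), and Chrna7, which encodes a nicotinic acetylcholine receptor subunit (92.14 and 76.91). These 4 were promoter members.

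Gene lists of neuronal differentiation and of other functions were counted beside a background of 1.78% of protein-coding genes with a member and 5.40% with a region of all 3 antibodies. The share with a member was 11.8% of projection neuron transcription factors, 7.69% of E proteins and Id and Hes factors, 5.45% of axon guidance and adhesion genes and 3.92% of synapse genes, and 0 in the other neuronal lists. These shares rest on 4 genes or fewer per list and are descriptions. Of 15 neuronal bHLH factors, 0 had a member, whereas Neurod2, Neurod6 and Bhlhe22 had a region with all 3 antibodies. Intergenic members farther off were not counted, such as those 3794 bp upstream of Neurod2 and 7661 bp upstream of Neurog2. Of 25 genes of neuronal migration and the cytoskeleton, 0 had a member and 10 had a region with all 3 antibodies. The corresponding counts were 0 and 2 among 21 interneuron genes.

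Among 13 E proteins and Id and Hes factors, which are the dimer partners and antagonists of bHLH proteins, Tcf4 alone had a member. It lay 72 bp upstream of a TSS of Tcf4, scored 97.46 with antibody 2 and 55.99 with antibody 3, and held no E-box in its central window. Tcf12 and Hes6 had a region with all 3 antibodies.

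Of 34 transcription factors of cortical projection neurons, 4 had a member (11.8%) and 8 a region with all 3 antibodies (23.5%), and 3 had both. The Foxp2 site, at the promoter of a forkhead factor of deep layer neurons, scored 103.31 and 73.14 and held no E-box. For the nuclear factor I genes, an intronic Nfix site scored 82.77 with antibody 2 and 74.27 with antibody 3, and an intronic Nfia site 63.88 and 71.37. The nearest region with all 3 antibodies was 214 bp from the Nfix site and 5517 bp from the Nfia site. An intron of Sox5, which encodes an SRY-box factor of deep layer neurons, scored 65.7 and 52.94. The antibody 3 scores at Foxp2, Nfix and Nfia were above the median of the members, and that at Sox5 was below it, whereas the antibody 2 scores of all 4 sites were below the median of the members. Sox5 had no region with all 3 antibodies.

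Of 55 axon guidance and adhesion genes, 3 had a member (5.45%) and 18 a region with all 3 antibodies (32.7%). Plxna4, which encodes a semaphorin co-receptor, had its member 2 bp from a TSS, with scores of 125.11 and 58.72. The promoter site of Tenm3, which encodes a teneurin adhesion molecule, scored 171.55 and 54.79 and held 3 E-boxes. The intronic site of Ephb1, an ephrin receptor gene, is shown above. Of 51 synapse genes, 2 had a member and 10 a region with all 3 antibodies. The site of Bsn, which encodes the presynaptic scaffold bassoon, was 751 bp upstream of its TSS with scores of 104.04 and 72.72, and its 7 E-boxes made it the promoter member with the most. Its window also had little CpG, with an observed over expected value of 0.208. An intron of Grik2, which encodes a kainate receptor subunit, scored 64.39 and 85.96.

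For genes of other cell types and of general function, the shares with a member were 4.55% and 4.44%, beside 1.78% of all protein-coding genes, and rest on 1 and 2 genes. Of 22 glial and vascular genes, Cx3cr1, the fractalkine receptor of microglia, had an intronic member (134.33 and 112.9) and a region with all 3 antibodies, and no other gene of the list had either. Of 45 genes of RNA processing and translation, 2 had a member (4.44%) and 2 others a region with all 3 antibodies. The members were the promoters of Eif3a, which encodes a translation initiation factor subunit (376.53 and 77.09), and of Rplp0, which encodes a ribosomal stalk protein (59.26 and 73.72). Neither held an E-box in its central window.

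Several members in the same gene were rare, with 5 such genes. In Cdk12, which encodes a kinase of RNA polymerase II, a site with scores of 136.2 and 83.24 and another with 110.49 and 70.62 were both intronic. They were close neighbours (chr11:98265218-98265641 and chr11:98265925-98266196). Trio, which encodes a guanine nucleotide exchange factor, had intronic sites with scores of 212.37 and 62.64 and of 91.14 and 58.96. These too were neighbours (chr15:27937037-27937477 and chr15:27938857-27939159). Tnr, which encodes the matrix protein tenascin-R, had a pair with 79.51 and 61.27 and with 81.82 and 51.95. Fam13c had a promoter site (69.23 and 51.45) and an intronic site (125.65 and 53.21), and Gm20388 had intronic sites with scores of 97.32 and 80.2 and of 111.52 and 73.05.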

How the data were processed

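Cortical ChIP-Seq of 3 NEUROD2 antibodies, with 1 library each, was used. Per the methods, the authors aligned reads by Bowtie (mm10) and ran MACS on every antibody separately against the GFP library. The deposited lists give 1 score per peak, minus 10 times log10 of p. The library of input DNA and the reads were not analysed here, and depth is unknown. Each antibody list formed its own group of 1 library, so no test between libraries was possible.

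Peaks sharing at least 1 bp were merged. Midpoints were assigned with GENCODE M21. Motif searches covered the central 200 bp, and 2 regions had no complete window. Sequences came from the GRCm38 reference. Shares were compared by two-sided Fisher's exact tests over regions, with Benjamini-Hochberg adjustment within each set of tests. Genes were named for the 10 members with the highest lower score, the lowest 3, the 3 regions just outside the rule, list genes and genes with several members, and others only after their values were seen. Members, gene lists and tests were chosen with earlier results of these data known. The steps were tested on simulated data. Alternatives concerned overlap, score, distance to antibody 1 peaks, score range, repeats, TSSs and windows. Python 3.11.15, numpy 2.4.6, scipy 1.17.1, pysam 0.24.0, statsmodels 0.14.6 and matplotlib 3.10.9 were used.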

Additional observations from a re-analysis of the deposited data

How the results depend on the processing

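Of 41 comparisons recomputed for the promoter, intergenic, CpG-rich and E-box shares, 37 kept their direction and their side of the threshold, and none turned direction. The E-box share divided by location was not among them. With at least 1 E-box, it did not pass at promoters (Fisher's exact test, adjusted p = 0.0768) or outside them (Fisher's exact test, adjusted p = 0.874). The number of sites was 462 both with overlap over a larger part of the peaks and without antibody 1 peaks within 1000 bp. The promoter share ranged from 48.5% with protein-coding TSSs to 70.4% with scores of at least 100. When the regions with all 3 antibodies were limited to the score range of the members, 27.1% of them were at promoters and 17.4% were CpG-rich. Requiring scores of at least 100 from both antibodies left 27 sites, whose share with an E-box was 85.2%, compared with 88.5% (Fisher's exact test, p = 0.543). The E-box share also did not pass the test when regions were divided by base composition, a division added after the data were seen: it was 93.4% and 93.9% in windows that were not CpG-rich (Fisher's exact test, p = 0.685), and 66.8% and 70.9% in CpG-rich ones (Fisher's exact test, p = 0.317). Outside promoters, the CpG-rich share was 5.80% (Fisher's exact test, p = 0.0766). These subsets hold fewer sites, and the cause was not tested. No antibody could be left out, since each defines the class. Unknown depth limits what the absence of an antibody 1 peak shows. No paired analysis was possible because each antibody has 1 library.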
